A study of Mus musculus with 2 samples.

Results

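The cytosolic ribosomal protein genes encode the proteins of the large and small subunits of the ribosome that works in the cytoplasm. They were chosen by name: Rpl or Rps followed by digits and an optional letter, plus Rplp0, Rplp1, Rplp2 and Rpsa, leaving out the S6 kinases. The rule found 84 genes, 51 of the large subunit and 33 of the small, among 22072 gene names, and 96 transcript rows among 28107. The RNA came from the lower molar mesenchyme of Osr2-/- mutant and Osr2+/- control mouse embryos, aged embryonic day 14.5 and of mixed strain background. Per the labels' protocols, the mesenchyme was cut from frozen head sections by laser capture, and the NuGEN Ovation RNA-Seq v2 kit, made for scarce RNA, was used to amplify it as cDNA. Material of 3 mutant and control pairs was pooled, and 1 library per genotype was sequenced. The series title speaks of wild type, whereas the sample label gives the control as heterozygous, and the label is followed here. The sources used here state neither embryo sex nor which part of Osr2 is deleted. By the deposited names, each genotype had a lane of its own; the effects of lane and genotype cannot be told apart.

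Each ribosome carries 1 copy of nearly every ribosomal protein, so cells make these proteins in matched amounts, and growing tissues spend a large part of their mRNA on them. Most of these mRNAs begin with a 5′ terminal oligopyrimidine (TOP) tract, a C followed by a run of C and T, through which the growth kinase mTOR and the protein Larp1 regulate their translation. When ribosome assembly is disturbed, free ribosomal proteins can bind Mdm2 and so stabilise p53, and loss of 1 gene copy of several members causes Diamond-Blackfan anaemia in humans and pigment, tail or skeletal defects in mice. Their mRNAs have also been copied back into the genome many times, leaving processed pseudogenes and retrogenes with nearly the same sequence.

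With 1 library per genotype no test between genotypes was possible, so no p-value is given. Levels are RPKM, reads divided by transcript length and by the depth of the library, as the authors deposited them. A gene counted as tested when its rows not marked as failed summed to at least 1 RPKM in at least 1 library, which 9779 genes did. Each fold has a 95% interval from estimated read numbers, which covers counting error only and compares these libraries, not the genotypes. The listed transcripts held an estimated 7854591 reads in the mutant library and 1277919 in the control library. Osr2 had 9.16 RPKM in the mutant library and 38.7 RPKM in the control library. All 12 mesenchyme markers passed the filter, with a summed level of 586 RPKM in the mutant library and 669 RPKM in the control library. Of 13 dental epithelium markers 10 passed, with a sum of 57.5 RPKM in the mutant library against 41.2 RPKM in the control library. Of those left out, 1 had only failed rows, with a lower value in the mutant library, so its omission does not reflect a low level. The 7 erythroid markers that passed summed to 876 RPKM in the mutant library and 1103 RPKM in the control library. In such pooled tissue, fewer cells of a type and less RNA per cell cannot be told apart, and the part of these other cells in the ribosomal protein values was not tested. The Osr2-/- and Osr2+/- libraries are called the mutant and the control.

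The ribosomal protein genes took up nearly the same part of the transcriptome in both libraries. They held 13.9% of the summed RPKM in the mutant and 13.7% in the control, or 14823 RPKM in the mutant and 15079 RPKM in the control. Of the estimated reads they held 4.84% (Wilson binomial interval 4.83 to 4.86) in the mutant and 4.75% (4.72 to 4.79) in the control. Large subunit genes summed to 8982 RPKM in the mutant and 9170 RPKM in the control, and small subunit genes to 5841 RPKM in the mutant and 5909 RPKM in the control. Both subunits thus stood within a few percent between the libraries. These sums leave out Rps27, whose rows were marked as failed in the mutant. With all 54 failed rows included, of which 2 were of Rps27, the shares were 14.6% in the mutant and 13.1% in the control. Failed rows of other genes also enter the total, so these shares do not show the part of Rps27 alone.

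Of the 84 genes, 80 were tested. Rpl3l, a paralogue made in striated muscle, and Rpl10l, a testis paralogue, were listed at 0 in both libraries. Rpl39l, another testis paralogue, had 0.0853 RPKM in the mutant, about 2 reads, and was listed at 0 in the control. The fourth gene left out was Rps27. With 100 RPKM or more in both libraries stood 60 genes, and at 10 RPKM or more 74. Among those 74 the levels ran in nearly the same order in both libraries, with a Pearson correlation of log2 RPKM of 0.99 across genes, which share their libraries and are not independent.

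**Figure D1:**
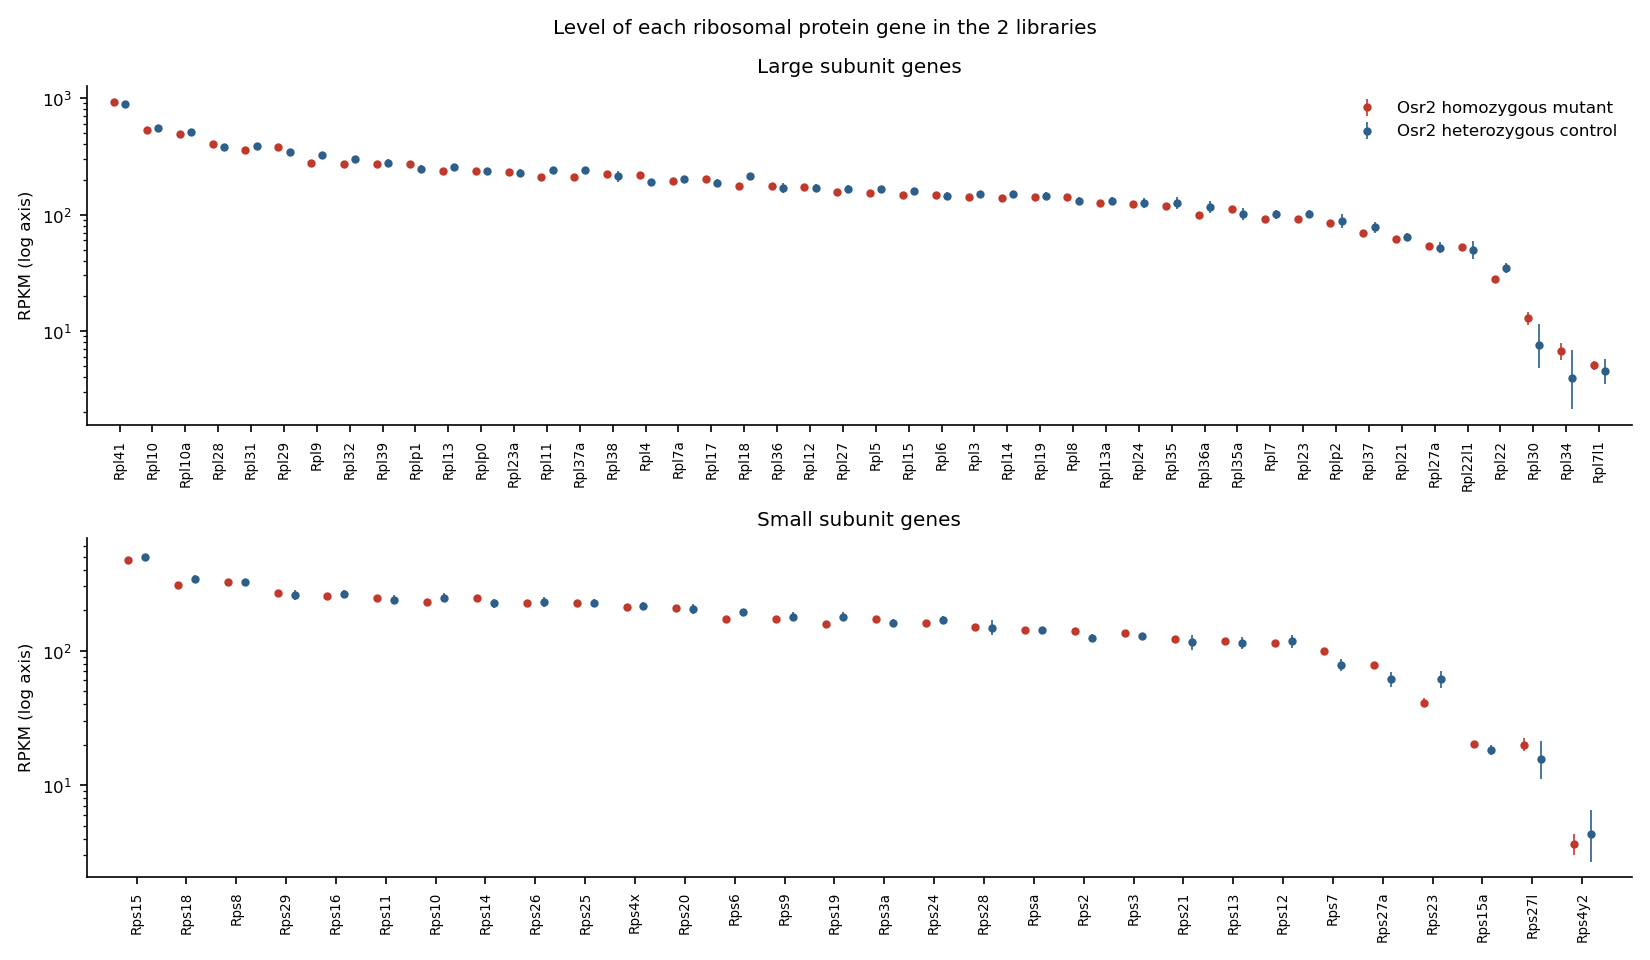
RPKM on a log axis of the ribosomal protein genes (a few are not shown) with at least 0.1 RPKM in both libraries, large subunit above and small subunit below, ordered by mean level. Red points are the Osr2-/- mutant library and blue points, to their right, the Osr2+/- control library, with 95% counting intervals. Most pairs of points lie side by side, from Rpl41 at 922 RPKM in the mutant and 896 RPKM in the control down to a tail of paralogues and of genes with a copy on their locus.

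Leaving out Rps27, whose failed rows had 944 RPKM in the mutant and 459 RPKM in the control, the most abundant members were structural proteins of both subunits. Rpl41, the shortest protein of the ribosome, had 922 RPKM in the mutant and 896 RPKM in the control. Rpl10, which is added late at the tRNA sites of the large subunit, had 536 RPKM in the mutant and 557 RPKM in the control, and Rpl10a, at the L1 stalk, had 496 RPKM in the mutant and 509 RPKM in the control. Rps15, which lies near the decoding site, had 474 RPKM in the mutant and 500 RPKM in the control. Rpl28 had 403 RPKM in the mutant and 378 RPKM in the control, Rpl29 had 378 RPKM in the mutant and 342 RPKM in the control, and Rpl31 362 RPKM in the mutant and 391 RPKM in the control. The 8 most abundant genes made up 26.5% of the members' RPKM in the mutant and 26.2% in the control. The fold of mutant over control of Rpl29 was 1.10 (1.04 to 1.17), the only one among the 8 whose interval lay above 1, and that of Rpl31 was 0.925 (0.884 to 0.969), the only one whose interval lay below 1.

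Differences between the libraries were small for most members. On the log2(RPKM + 1) scale the median log2 ratio of mutant over control was -0.03 for the 80 members, with quartiles of -0.10 and 0.08, against -0.05 for all genes tested, with quartiles of -0.21 and 0.12. Large subunit genes had a median of -0.04 (48 genes) and small subunit genes of 0.00 (32 genes). All 3 medians of members were above 0 when values were put on a TPM scale (0.0202 for the members, 0.00353 for the large subunit, 0.0474 for the small), so no direction is given for the group. In all, 35 members (43.8%) lay above 0 and 45 below, against 42.5% of all genes tested above 0, and 70 members (87.5%) were within 1.2-fold. Of all genes tested 68.1% were within 1.2-fold, and 86.8% of the 219 other genes with a mean of 50 RPKM or more, so the share of the members was close to that of other abundant genes.

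No member was at least 2-fold higher in the mutant, against 0.89% of all genes tested, and 1 of 80, Rpl26, was at least 2-fold lower, against 0.798%. At least 1.5-fold higher were 3 members, Rpl30 and Rpl34 among them, against 2.55% of all genes, and at least 1.5-fold lower was again Rpl26 alone, against 3.57%. The members' shares, 3.75% and 1.25%, are a few genes either way. Rpl26, Rpl30 and Rpl34 carry the row of a copy on their locus, described next. By counting interval alone, 12 members (15%) lay above 1, against 7.87% of all genes, and 19 (23.8%) below 1, against 15.9%. Members had a median of 4212.5 estimated reads in the mutant and 671.5 in the control, so their intervals were narrow.

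**Figure D2:**
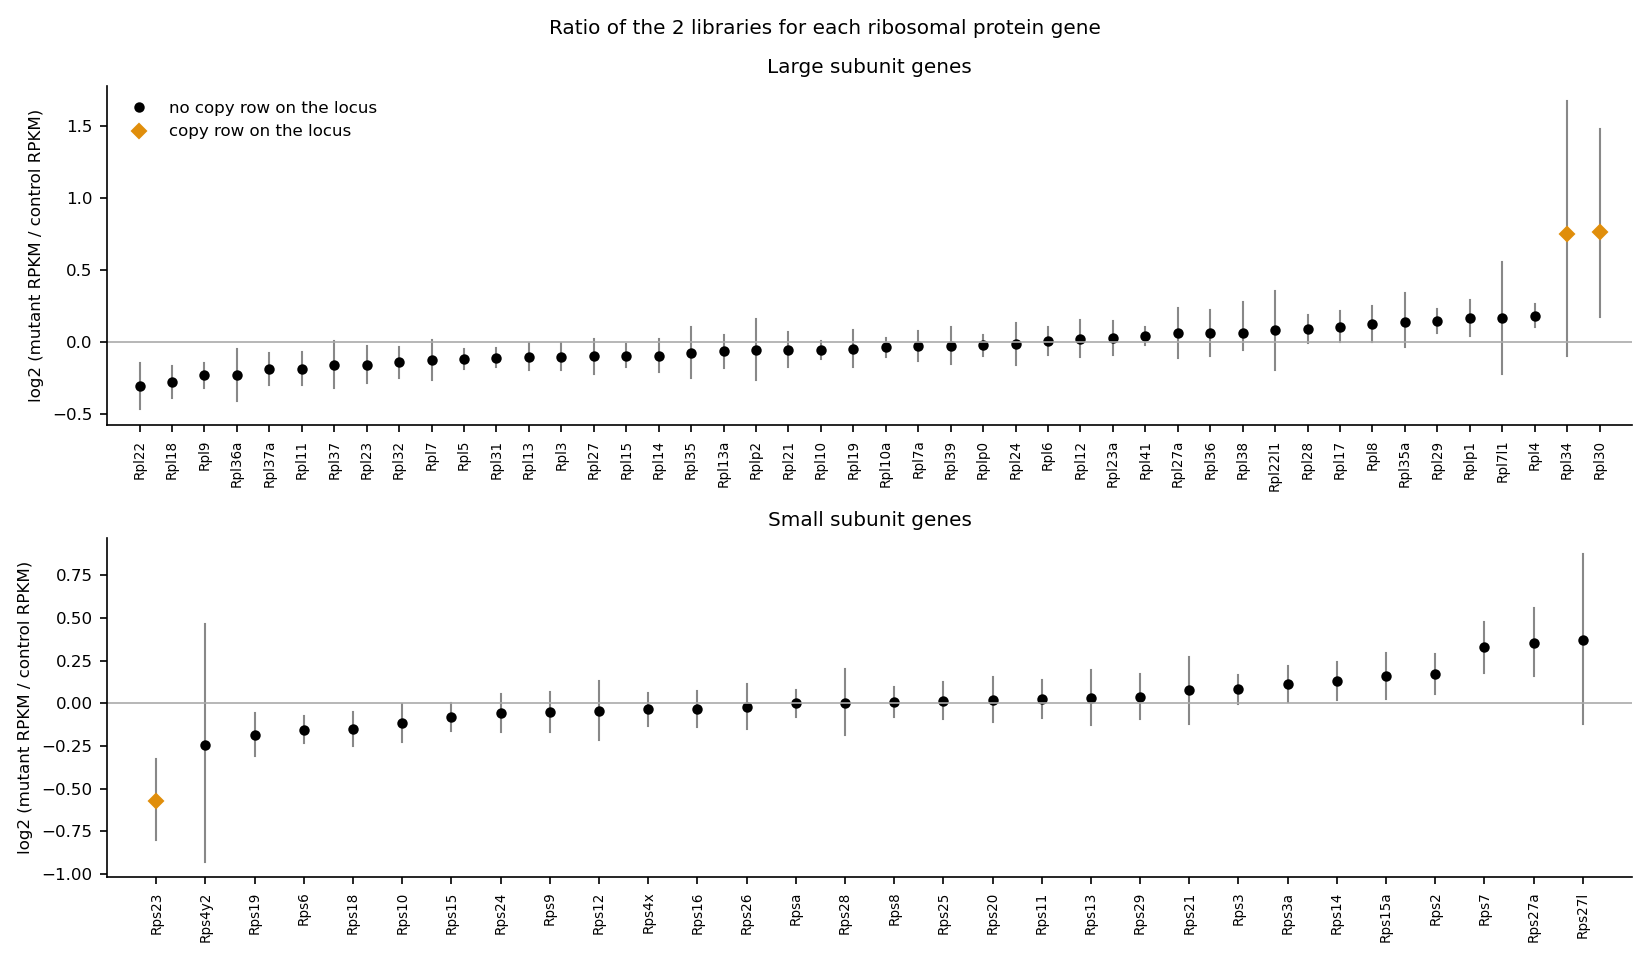
Log2 ratio of mutant over control RPKM for each tested ribosomal protein gene, ordered within the large (above) and small (below) subunit, with 95% counting intervals as grey lines. Rpl26, listed at nearly 0 in the mutant, is not drawn, nor is Rps27, whose rows failed there. Orange diamonds mark genes with the row of a copy on the same locus, and they stand at the ends of the panels: Rpl30 and Rpl34 at the top, Rps23 at the bottom. A few members are not shown.

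On 5 member loci described here the authors' tables hold a second row, under another gene name, that overlaps the member's locus: Gm15772 on Rpl26, Gm12191 on Rpl30, Rpl34-ps1 on Rpl34, Gm15450 on Rps23 and Gm9846 on Rps27. GENCODE release M21 on GRCm38 places all 5 of these copies on another chromosome than the member. RefSeq names now call Gm15450 Rps23-ps1 and Gm9846 Rps27rt. In mm9 the files give Rpl30 at chr15:34370263-34373031 with Gm12191 at chr15:34370261-34372988. Over the coding bases that could be aligned, the copies were identical to the member at 436 of 438 bases for Rpl26, 347 of 348 for Rpl30, 352 of 354 for Rpl34, 425 of 425 for Rps23 and 255 of 255 for Rps27. At Rps23 the alignment covered 425 of the 432 coding bases, and the rest were not compared. The sequences below show how little there is to tell each pair apart. They are the 60 transcript bases around the first coding difference, from GENCODE release M21 on GRCm38, with the differing base in capitals; Rps23 and Rps27 show their first 60 coding bases, in which the copy is the same, base for base.
Rpl26: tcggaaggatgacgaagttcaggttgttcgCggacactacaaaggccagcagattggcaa
Gm15772: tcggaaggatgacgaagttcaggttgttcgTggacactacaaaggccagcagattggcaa
Rpl30: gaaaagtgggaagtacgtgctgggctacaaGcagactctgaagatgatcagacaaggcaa
Gm12191: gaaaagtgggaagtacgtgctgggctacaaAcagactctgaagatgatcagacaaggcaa
Rpl34: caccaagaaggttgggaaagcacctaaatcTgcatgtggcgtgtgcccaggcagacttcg
Rpl34-ps1: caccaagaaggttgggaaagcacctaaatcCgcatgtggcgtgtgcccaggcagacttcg
Rps23: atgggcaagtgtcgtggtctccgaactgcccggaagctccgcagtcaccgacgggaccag
Rps27: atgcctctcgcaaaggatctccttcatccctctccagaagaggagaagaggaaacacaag
Counting from the A of the start codon, with the member's base first, the substitutions were C177T and T288C in Rpl26, G96A in Rpl30, and T132C and C318G in Rpl34.

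The copy row held 37.9% of the locus total in the mutant and 0.121% in the control at Rps23, and 0.871% in the mutant and 54.7% in the control at Rps27. At Rpl30 the parts were nearly equal, 94.5% in the mutant and 95.0% in the control. Of the totals, 4 of the 5 were within 1.2-fold. Rpl26, which sits beside the exit of the peptide tunnel, was listed at 3.53e-05 RPKM in the mutant, less than 1 read, against 6.41 RPKM in the control, about 19 reads. A floor of 3 reads in the mutant lies 39.8-fold below the control value, and with the counting error of the control included the row was at least 29.8-fold lower in the mutant. Its copy row Gm15772 had 55.3 RPKM in the mutant and 42.8 RPKM in the control, so the locus summed to 55.3 RPKM in the mutant and 49.2 RPKM in the control, 1.13-fold (0.938 to 1.35). Rpl26 was thus lower in the mutant in its own row and not lower in the sum over the locus.

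Rps23, a protein of the decoding centre, had 41.1 RPKM in the mutant and 61.0 RPKM in the control, 1.49-fold lower in the mutant (1.26 to 1.75). Its copy row had 25.1 RPKM in the mutant and 0.0739 RPKM in the control, and the sums were 66.1 RPKM in the mutant and 61.0 RPKM in the control, a fold of 1.08 (0.890 to 1.22). Rps27, a zinc finger protein of the small subunit, was split the other way. Its own rows, marked as failed in the mutant, had 944 RPKM there and 459 RPKM in the control, its copy row had 8.29 RPKM in the mutant and 554 RPKM in the control, and the sum of 952 RPKM in the mutant was 0.9396 of the control sum (0.896 to 0.988). The copy rows on Rps27 (Gm9846, log2 ratio -5.90) and on Rps23 (Gm15450, log2 ratio 4.60) had the lowest and the highest ratio among all 9779 genes tested.

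Rpl34 had 6.69 RPKM in the mutant and 3.99 RPKM in the control, 1.68-fold (0.935 to 3.18), and with its copy row 82.8 RPKM in the mutant and 79.2 RPKM in the control, 1.04-fold (0.904 to 1.24). Rpl30, a small RNA-binding protein at the interface of the subunits, was the exception. It had 12.9 RPKM in the mutant and 7.59 RPKM in the control, 1.69-fold (1.13 to 2.78), its copy row had 222 RPKM in the mutant and 146 RPKM in the control, and the locus summed to 235 RPKM in the mutant and 153 RPKM in the control, 1.53-fold higher in the mutant (1.38 to 1.70). It was the only one of the 5 loci whose sum differed by more than 1.2-fold. The authors' status marked 3 of these 5 copy rows as low data, all but Gm12191 and Rpl34-ps1. The sources used here do not say how reads that match several places were assigned.

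**Figure D3:**
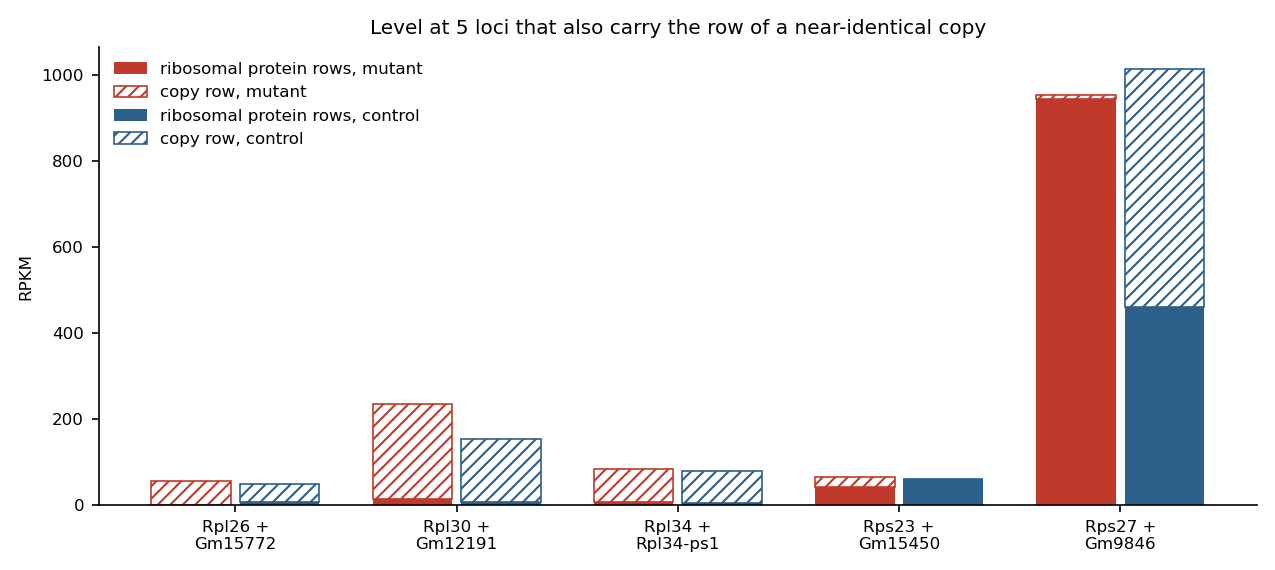
RPKM at 5 loci that carry the row of a near-identical copy, with the mutant bar (red) left of the control bar (blue) at each locus; solid parts are the member's own rows and hatched parts the copy row. The Rps27 bars are 952 RPKM in the mutant and 1014 RPKM in the control although their solid parts are 944 RPKM in the mutant and 459 RPKM in the control, and Rpl30 has the one pair of clearly unequal bars, 235 RPKM in the mutant and 153 RPKM in the control.

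The 75 tested members with no copy row on their locus had a median log2 ratio of -0.03, from -0.30 for Rpl22 to 0.35 for Rps27a, and 70 of them (93.3%) were within 1.2-fold. Sequence shared with other genes was nevertheless common in the whole family. Of all 84 members, matched to GENCODE transcripts, 81 shared at least 1 window of 50 bases with another gene, and the median member shared 46.2% of its windows. More than 50% was shared by 38 members, with Rpl9 highest at 93.3% and Rpl10 next at 92.1%. No window was shared by 3 members, Rpl39l and Rpl3l among them. At least 100 windows were shared with another gene by 72 members, with 3 such genes in the median and 41 at most, for Rpl21. Across the 74 members at 10 RPKM or more, the shared percentage and the size of the log2 ratio had a Pearson correlation of 0.01 and a Spearman correlation of 0.03, given as a description of genes in the same libraries. Values of members with many shared windows remain uncertain, because the counting could have split their reads among copies.

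**Figure D4:**
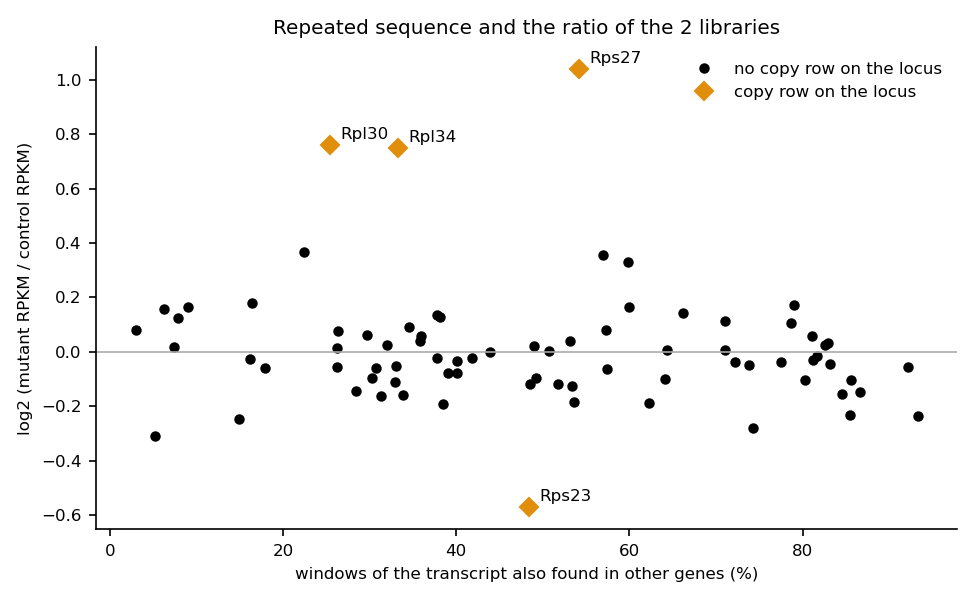
Percentage of 50-base windows of each member's transcript that also occur in another gene (horizontal axis) against the log2 ratio of mutant over control RPKM (vertical axis), for members with at least 0.1 RPKM in both libraries. Black points stay near 0 across the whole range of shared sequence, up to 93.3% for Rpl9, and orange diamonds, the members with a copy row on their locus, lie farthest from 0. The Rps27 diamond rests on rows marked as failed in the mutant.

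Among the large subunit members without a copy row, the lowest ratios belonged to Rpl22, Rpl18, Rpl9 and Rpl36a. Rpl22, known for its role in T cell development, had 27.9 RPKM in the mutant and 34.6 RPKM in the control, 1.24-fold lower in the mutant (1.11 to 1.38). Rpl18 had 176 RPKM in the mutant and 213 RPKM in the control, 1.21-fold lower (1.12 to 1.31). Rpl9 had 279 RPKM in the mutant and 328 RPKM in the control, 1.18-fold lower (1.11 to 1.25). Rpl36a had 98.8 RPKM in the mutant and 116 RPKM in the control, 1.17-fold lower (1.03 to 1.33), and Rpl37a 210 RPKM in the mutant and 239 RPKM in the control, 1.14-fold lower (1.05 to 1.23). These intervals lay apart from 1, but none of the genes passed 1.5-fold.

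The highest ratios without a copy row were mostly in small subunit genes. Rps27a, which is made as a fusion with ubiquitin, had 78.1 RPKM in the mutant and 61.1 RPKM in the control, 1.28-fold (1.12 to 1.47). Rps7, which binds Mdm2, had 98.5 RPKM in the mutant and 78.5 RPKM in the control, 1.26-fold (1.13 to 1.39). Rps27l, a paralogue of Rps27 that p53 is known to induce, had 20.01 RPKM in the mutant and 15.5 RPKM in the control, 1.29-fold with an interval that includes 1 (0.918 to 1.84). Rpl4, whose long loop lines the exit tunnel, had 218 RPKM in the mutant and 192 RPKM in the control, 1.13-fold (1.07 to 1.198), and Rps2, at the mRNA entry, 140 RPKM in the mutant and 124 RPKM in the control, 1.13-fold (1.04 to 1.22). Fau, a ubiquitin-like fusion that the name rule leaves out, had 111 RPKM in the mutant and 125 RPKM in the control.

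The stalk that recruits elongation factors is built from Rplp0, Rplp1 and Rplp2. Rplp0 had 235 RPKM in the mutant and 239 RPKM in the control, 0.984-fold (0.935 to 1.04), and Rplp2 84.7 RPKM in the mutant and 88.3 RPKM in the control, 0.959-fold (0.830 to 1.12). Rplp1 had 274 RPKM in the mutant and 244.6 RPKM in the control, 1.12-fold (1.03 to 1.22). Rpsa, a small subunit protein also known as the laminin receptor, had 142 RPKM in both libraries.

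Rpl5 and Rpl11 form the 5S particle with the 5S rRNA and, like Rpl23, can bind Mdm2. All 3 were slightly lower in the mutant. Rpl5 had 153 RPKM in the mutant and 166 RPKM in the control, 1.09-fold lower (1.03 to 1.14). Rpl11 had 210 RPKM in the mutant and 239 RPKM in the control, 1.14-fold lower (1.05 to 1.23), and Rpl23 90.9 RPKM in the mutant and 101 RPKM in the control, 1.12-fold lower (1.02 to 1.22).

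A chosen list of 10 members tied to Diamond-Blackfan anaemia in humans, which is not complete, had a median log2 ratio of -0.10. Of these 10, 2 (20%) lay above 0, Rps7 and Rpl35a, against 42.5% of all genes tested. On a TPM scale Rps26 lay above 0 as well, with a log2 ratio of 0.0245, so this count depends on the scaling. Rpl35a had a log2 ratio of 0.14 summed over its rows and of -0.24 when only its highest row was used. Rps19, the member most often mutated in that disease, had 157 RPKM in the mutant and 179 RPKM in the control, 1.14-fold lower (1.04 to 1.24). Rps10 had 229 RPKM in the mutant and 248 RPKM in the control, and Rps26 227 RPKM in the mutant and 231 RPKM in the control. The list includes Rpl26, whose value turned with the copy row. No member of it without a copy row differed by 1.5-fold.

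Paralogues of standard ribosomal protein genes were compared with their partners. Rpl22l1 had 52.6 RPKM in the mutant and 49.8 RPKM in the control, per length more than Rpl22, and made up 65.3% of the pair's RPKM in the mutant and 59.0% in the control. The fold of Rpl22l1 itself, 1.06 (0.874 to 1.28), included 1, while Rpl22 was lower in the mutant. Rpl7l1 had 5.09 RPKM in the mutant and 4.54 RPKM in the control, 5.24% of its pair in the mutant and 4.33% in the control, with Rpl7 as partner, which had 92.0 RPKM in the mutant and 100.4 RPKM in the control. Rps4y2, which the files place on chromosome 6 in mm9, is listed there only as a non-coding RefSeq transcript. It had 3.62 RPKM in the mutant and 4.30 RPKM in the control, 1.70% of its pair with Rps4x in the mutant and 1.96% in the control. Standard proteins thus made up nearly all of the RNA of each detected pair other than Rpl22 and Rpl22l1. For Rpl3 the values were 141 RPKM in the mutant and 151 RPKM in the control, with Rpl3l listed at 0 in both.

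Members lay on 19 chromosomes, 14 of them on chromosome 7 and 4 on X. The X-linked members were Rpl10, Rpl36a, Rpl39 and Rps4x. Rpl39, in the exit tunnel, had 271 RPKM in the mutant and 276 RPKM in the control, and Rps4x, of the small subunit, had 210 RPKM in the mutant and 215 RPKM in the control. The median log2 ratio of the 4 was -0.05, against -0.10 for the 370 genes of chromosome X that were tested. Xist, the RNA that coats the inactive X of females, had 29.95 RPKM in the mutant and 5.21 RPKM in the control; the part of that difference in the values of these genes was not tested.

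Of the 84 genes, 75 had a single transcript row and 9 had several. Rpl35a had 74.2 RPKM in its main row in the mutant and 87.8 RPKM in the control, and a second row had 34.3 RPKM in the mutant and 13.0 RPKM in the control. The remaining Rpl35a row had 2.31 RPKM in the mutant and was near 0 in the control. Summed over rows, Rpl35a had 111 RPKM in the mutant and 101 RPKM in the control, 1.10-fold (0.973 to 1.26). Rpl38, whose loss causes the Tail short defect of the mouse skeleton, showed the same kind of split. Its shortest row, marked as low data, had 144 RPKM in the mutant and 168 RPKM in the control, and the other rows had 46.5 RPKM and 33.0 RPKM in the mutant, against 19.2 RPKM and 26.6 RPKM in the control. Their sums were 224 RPKM in the mutant and 214 RPKM in the control. Rps24 had 152 RPKM in its main row in the mutant and 163 RPKM in the control, with 9.01 RPKM in the mutant and 5.49 RPKM in the control in the second. The rows of Rpl35a and Rpl38 differed more between the libraries than the sums did.

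Level and transcript length were only weakly related. Across the 74 members at 10 RPKM or more, log2 level and log2 length had a Pearson correlation of -0.35 and a Spearman correlation of -0.26, while the log2 ratio and log2 length had -0.01 and -0.10. Rps15a, whose row is the longest at 5134 bases, had 20.3 RPKM in the mutant and 18.2 RPKM in the control, low for the group. RPKM divides by that listed length.

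The start sites of the members share sequence features, printed here for 4 abundant members with a run of C and T at the start or, for Rpl39, just after it. The windows run from 30 bases before to 20 bases after the start in RefSeq's annotation, build GRCm38.p6, with the run in capitals, and lie at chr3:90213629-90213678 (minus strand) for Rps27, chr7:4792935-4792984 (plus) for Rpl28, chr17:33955646-33955695 (minus) for Rps18 and chrX:37085203-37085252 (minus) for Rpl39.
Rps27: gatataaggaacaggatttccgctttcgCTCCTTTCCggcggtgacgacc
Rpl28: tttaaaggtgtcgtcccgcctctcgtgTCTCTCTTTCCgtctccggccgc
Rps18: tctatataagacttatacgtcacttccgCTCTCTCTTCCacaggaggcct
Rpl39: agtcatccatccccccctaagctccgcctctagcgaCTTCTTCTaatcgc
Of the 63 members with a start in that table, 26 (41.3%) had an unbroken run of at least 8 C or T overlapping the stretch from 5 bases before to 10 bases after the start, against 13.0% of 27025 genes. The letters CTTTCC stood within 20 bases of the start, on the gene's strand, in 11 members (17.5%) against 2.30% of all genes. In the whole window of 300 bases, both strands searched, CCGGAAG, the core letters bound by Ets factors such as Gabpa, stood in 26 members (41.3%) against 9.93%, and AAGATGGC, the core of the Yy1 motif, in 6 (9.52%) against 3.19%. GGGCGG, the core of the Sp1 motif, stood in 39 members (61.9%) against 38.2%, and TATAAA in 7 (11.1%) against 15.7%. These are matches of letters, not measured binding.

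Other mRNAs known to carry a TOP tract stood close to the ribosomal protein genes. The 20 tested had a median log2 ratio of -0.06, with 6 above 0 and quartiles of -0.13 and 0.01, and none passed 1.5-fold. The largest differences in either direction were in Eif3f, a subunit of initiation factor 3, with 39.2 RPKM in the mutant and 50.8 RPKM in the control, 1.30-fold lower (1.16 to 1.44), and in Eef1d, Eef1g and Eif3e. Eef1g, a subunit of elongation factor 1, had 145 RPKM in the mutant and 173 RPKM in the control, 1.19-fold lower (1.13 to 1.26), Eef1d had 14.9 RPKM in the mutant and 12.3 RPKM in the control, and Eif3e 47.1 RPKM in the mutant and 39.7 RPKM in the control.

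The 30 other translation factors had a median log2 ratio of 0.05, with 19 above 0, against the median of -0.05 and the 42.5% above 0 of all genes tested. Eif4ebp1, the repressor of cap-dependent initiation that mTOR switches off, had 3.14 RPKM in the mutant and 1.60 RPKM in the control, 1.96-fold (1.02 to 4.94). Eif2s3x, the X-linked gamma subunit of the factor that brings the first tRNA, had 30.1 RPKM in the mutant and 19.9 RPKM in the control, 1.51-fold (1.36 to 1.68). Embryo sex is not stated, and Xist had 29.95 RPKM in the mutant and 5.21 RPKM in the control. The part of that difference in the value of this X-linked gene was not tested. Eif1a had 9.45 RPKM in the mutant and 6.80 RPKM in the control, and Eif3b 9.49 RPKM in the mutant and 7.09 RPKM in the control.

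Genes of ribosome assembly had a median of 0.08 over 40 tested, with 24 above 0 and a wider spread than the ribosomal proteins, with quartiles of -0.07 and 0.27. Ltv1, an export factor of the small subunit, had 6.61 RPKM in the mutant and 11.2 RPKM in the control, 1.70-fold lower (1.36 to 2.11). Gnl3, the nucleolar protein nucleostemin, had 7.01 RPKM in the mutant and 4.01 RPKM in the control, 1.75-fold (1.26 to 2.45). Rrs1 had 1.74 RPKM in the mutant and 0.892 RPKM in the control, and Rrp9 0.784 RPKM in the mutant and 1.57 RPKM in the control. These genes were far less abundant than the ribosomal proteins, with a median level of 4.79 RPKM in the mutant and 4.14 RPKM in the control against 159 RPKM in the mutant and 168 RPKM in the control for the members.

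Growth regulators of ribosome supply had a median of -0.04 over 17 tested, with 7 above 0 and 10 below, from -0.37 to 0.71. By counting interval, 3 lay above 1 and 3 below 1. Myc, Mtor and Larp1, named next, were not among the 4 with the largest log2 ratios in either direction. Myc had 11.9 RPKM in the mutant and 10.3 RPKM in the control, Mtor 2.10 RPKM in the mutant and 2.30 RPKM in the control, and Larp1 9.53 RPKM in the mutant and 8.09 RPKM in the control. Rps6kb2, an S6 kinase and 1 of those 4, had 4.36 RPKM in the mutant and 2.26 RPKM in the control, 1.92-fold (1.201 to 3.34). The others of those 4 lay below 0. Among them, Yy1 had 8.26 RPKM in the mutant and 10.1 RPKM in the control, 1.23-fold lower (1.01 to 1.49). Of the 13 genes of p53 and ribosomal stress 8 were tested, with a median of 0.13 and 5 above 0. Cdkn1a, the p53 target that stops the cell cycle, had 1.67 RPKM in the mutant and 0.492 RPKM in the control, 3.40-fold (1.43 to 10.8). Trp53 had 45.0 RPKM in the mutant and 38.4 RPKM in the control, 1.17-fold (1.05 to 1.31), while Ccng1, another target, had 6.36 RPKM in the mutant and 8.19 RPKM in the control, 1.29-fold lower (1.08 to 1.54). Tested genes of this list thus lay on both sides of 0.

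**Figure D5:**
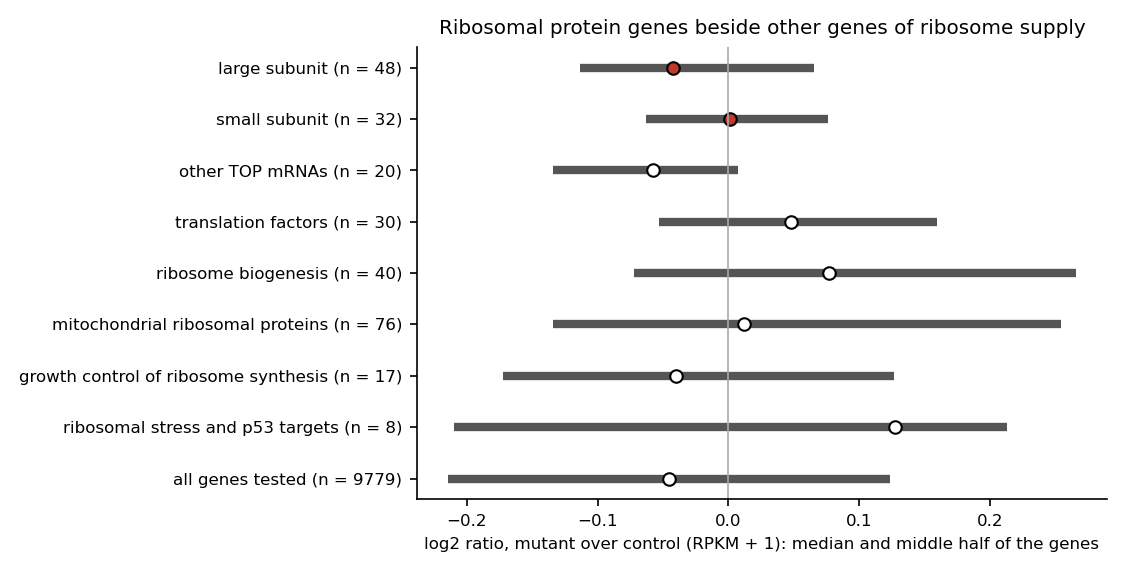
Median (circle) and quartiles (ends of the bar) of the log2 ratio of mutant over control, on the log2(RPKM + 1) scale, for the large and small subunit genes (red), other genes of ribosome supply, and all genes tested. The bars of the large and small subunit genes are narrow and lie around 0, with medians of -0.04 and 0.00 that turn to 0.00353 and 0.0474 on a TPM scale, and those of the less abundant ribosome biogenesis and mitochondrial ribosomal protein genes are wider.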

How the data were processed

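Levels were taken from 1 table per library, which the authors deposited with RPKM, mean coverage, transcript length and a status for each RefSeq transcript, per the file headers. The submitters' processing notes name Bowtie 0.12.7, TopHat 1.4.1 and build mm9. File names point to Cufflinks. Its version and the handling of strand and of multiple matches are not given in the sources consulted. Both tables list the same rows in different order and were joined on transcript, gene, locus and length. RPKM was summed per gene without the 54 rows marked as failed or as having too much data, and ratios were taken as log2(RPKM + 1). Reads were estimated from the deposited coverage times length, divided by a step of 44.3 bases taken as 1 read, a value read from the data and only weakly supported. Coverage gave a mutant library 6.38 times as deep as the control library. Folds have exact 95% binomial intervals of these reads; amplified reads are not independent molecules. Members and lists were chosen with earlier results of these data known. Named in full were the 8 members with the highest and the 8 with the lowest log2 ratios and the 8 most abundant with no failed row. Those listed at 0 or failed, and 5 short lists, were also named. Each other list was to give up to 4 genes with the largest ratios, but Myc, Mtor, Larp1 and Rps6kb1, among others, fall outside that rule. Members outside that rule were chosen after their values were seen. Copies were rows of at least 200 bases under another gene name that overlapped a member's locus. Calculations used Python 3.11.15, pandas 2.3.3 and scipy 1.17.1, and the intervals were tested on simulated data. Some members and 1 list gene are not reported here by name or drawn, but counts, medians and sums include them.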

Additional observations from a re-analysis of the deposited data

How the results depend on the processing

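Counts, medians and shares were recomputed under 9 settings, of which leaving out low-data rows and adding the copy rows were chosen after seeing the data. The number of members at least 1.5-fold higher was 2 with a filter of 5 RPKM, 4 with failed rows included and 4 without low-data rows, against 3 as reported. The number of members at least 2-fold higher in the mutant library was 1 with a pseudocount of 0.1 and on a TPM scale and 1 with failed rows included (Rps27). The median log2 ratio of all genes was -0.0564 with a pseudocount of 0.1, -0.0562 with the highest row per gene, -0.00707 on the TPM scale, and 0 with no filter and when centred on itself; that of the members was 0.0202 on the TPM scale and 0.0196 when centred, and that of the small subunit genes 0.0474 and 0.0468, while that of the large subunit genes was 0.00353 and 0.00305, so the sign of these medians rests on the scaling. The members' share of RPKM was 14.2% in the mutant library and 14.0% in the control library with the highest row per gene, 14.6% in the mutant library and 13.1% in the control library with failed rows, and 15.5% in the mutant library and 14.2% in the control library with failed and copy rows. Where failed rows were included, those of other genes entered the total too. With the copy rows added, no member was at least 2-fold lower, those 1.5-fold apart numbered 1 higher (Rpl30) and 0 lower, Rpl26 turned to 0.17 and Rps23 to 0.11. The log2 ratio of Rpl26 was -6.03 with a pseudocount of 0.1 and -5.89 on the TPM scale, and that of Rpl35a was -0.24 with the highest row per gene. No paired analysis was possible because each genotype has 1 library, and for the same reason none could be left out. The control library, the shallower, limits the intervals of members under about 10 RPKM.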

Other observations

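The mitochondrial ribosomal protein genes, which serve the separate ribosome of mitochondria, had a median log2 ratio of 0.01 over 76 tested, with 38 above 0 and quartiles of -0.13 and 0.25. Mrps18c had 8.68 RPKM in the mutant library and 3.88 RPKM in the control library, 2.23-fold (1.24 to 4.97), and Mrps5 had 6.31 RPKM in the mutant library and 3.14 RPKM in the control library, 2.01-fold (1.34 to 3.22). Mrpl33 had 8.81 RPKM in the mutant library and 4.75 RPKM in the control library, and Mrps6 3.99 RPKM in the mutant library and 7.12 RPKM in the control library, 1.78-fold lower (1.15 to 2.70). Summed, the 76 genes had 447 RPKM in the mutant library and 449 RPKM in the control library.

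The S6 kinase genes, taken as all those whose names begin with Rps6k, had a median of 0.10 over 9 of 10 tested. Rps6 itself had 173 RPKM in the mutant library and 193 RPKM in the control library, 1.11-fold lower (1.05 to 1.18), and Rps6kb1 had 6.76 RPKM in the mutant library and 6.58 RPKM in the control library. Just outside the name rule, Rpl36al had 87.9 RPKM in the mutant library and 91.0 RPKM in the control library, and Rps19-ps3 4.31 RPKM in the mutant library and 4.66 RPKM in the control library.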
